A study of Sus scrofa with 6 samples.

Results

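The genes described here drive the cell cycle and copy DNA. They comprise 103 probe sets of 75 genes, out of 23999 probe sets tested on the array, of which 10069 carried exactly 1 gene symbol and covered 6765 genes. A rule on symbols alone decided which probe sets are members, and that rule was drawn up with earlier results of these data known. The symbol had to begin with CCNA, CCNB, CCND, CCNE, CDK and a digit, CDKN, CDC (CDC42 left out), MCM, ORC, POLA, POLD, POLE, RFC, BUB or CENP, or to be MKI67, PCNA, TOP2A, RRM1, RRM2, TYMS, AURKA, PLK1 or BIRC5. The prefixes also caught 16 genes (24 probe sets) that share a name with this machinery but mainly do other work, or only assist it, such as the Hsp90 partner CDC37 and the splicing factor CDC5L, and these are kept apart as a role of their own.

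The study asked whether blastocysts provoke a local response in the uterine horn that holds them. In each of 3 weaned Landrace x Large White crossbred sows, 1 oviduct received spermatozoa by laparoscopy and the opposite oviduct received the diluent alone. Horns with embryos therefore held blastocysts on day 6 after insemination, and horns with oocytes, on the opposite side of the same animal, held unfertilised oocytes on the same day. Both horns shared the sow's cycle stage, anaesthesia and surgery, and they differed in both the injected spermatozoa and what the horn then held. The mucosa of the first 10 cm of each horn next to the oviduct was scraped, and its RNA was hybridized to an Affymetrix porcine array of its own, for 3 arrays per group. The scrapings of several cell types were measured as bulk RNA, so that fewer cells of a type and less RNA per cell cannot be told apart. All values are signals in arbitrary units on a linear scale, and a signal is comparable between horns for the same probe set but not between probe sets. Array medians were 30.6 to 35.8 with embryos and 32.1 to 35.5 with oocytes, and signals under 10 made up 25.4% to 29.0% of each array.

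A cell that is to divide passes from G1 through DNA synthesis and G2 into mitosis. Cyclins bind and switch on cyclin-dependent kinases (CDKs), and the CDKN proteins hold these kinases back. Origin recognition proteins (ORC) load the MCM helicase in G1, after which polymerases alpha, delta and epsilon, the sliding clamp PCNA and its loader RFC copy the genome with deoxynucleotides made by RRM1, RRM2 and TYMS. Mitotic genes such as TOP2A, BIRC5, CENPF and CDC20 are transcribed mainly in G2 and M, and their mRNA is therefore widely read as a mark of dividing cells. Progesterone and oestrogen are known to set when the uterine epithelium proliferates. RNA of epithelial marker genes was present in the scrapings. All 6 epithelial markers listed (EPCAM, KRT8, KRT18, KRT19, CDH1 and MUC1) were measured, and their signals summed to 7391 to 10060 with embryos and 7580 to 9845 with oocytes. Stromal RNA was present too, with 5 of 6 markers measured and sums of 3220 to 6559 with embryos and 3305 to 7022 with oocytes. Above the median signal of all probe sets lay 5 of the 6 epithelial and 4 of the 5 stromal markers. Signals cannot be compared between probe sets, so these sums do not give the share of either cell type.

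None of the 103 probe sets separated horns with embryos from horns with oocytes after adjustment over all 23999 probe sets (limma, Benjamini-Hochberg, smallest adjusted p = 1.00). Their median log2 fold change, embryo minus oocyte, was -0.03, against 0.01 for all probe sets, with 43 members higher and 60 lower. A single member, a dim probe set of CDKN1B, had an unadjusted p under 0.05 and was lower, against 1.59% of all probe sets lower at that level and 2.88% in either direction. With 0 members higher at that level, the background was 1.3%. With the sow as a block, 6 members had an unadjusted p under 0.05, 2 higher (CDC25B and CDKN2AIP) and 4 lower (CCNB1, TOP2A, CDC5L and CDKN1B). The background was then 8.7% of all probe sets, 3.75% higher and 4.95% lower, and again 0 members passed adjustment (smallest adjusted p = 0.309). Neither count was a larger share of the members than its background. The sign of the median rested on single arrays, since it was 0.05 without the embryo array of sow 1.

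Every value given with a standard error is a log2 fold change, embryo minus oocyte, from the limma fit. How closely the horns matched depended on how bright a probe set was. Of the members, 56 were brighter, averaged over the arrays, than the median probe set. Their fold changes lay between -0.58 and 0.44 with a median of -0.01 and a median standard error of 0.20, and 2 of them exceeded 0.5 in size. The other 47 ranged from -1.94 to 2.07 with a median standard error of 0.54, and 16 exceeded 0.5. Most of the large fold changes were thus those of dim probe sets, whose spread between replicates was also large. With the brightest probe set standing for each of the 75 genes, 34 were higher and 41 lower, and the median was -0.01.

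**Figure D1:**
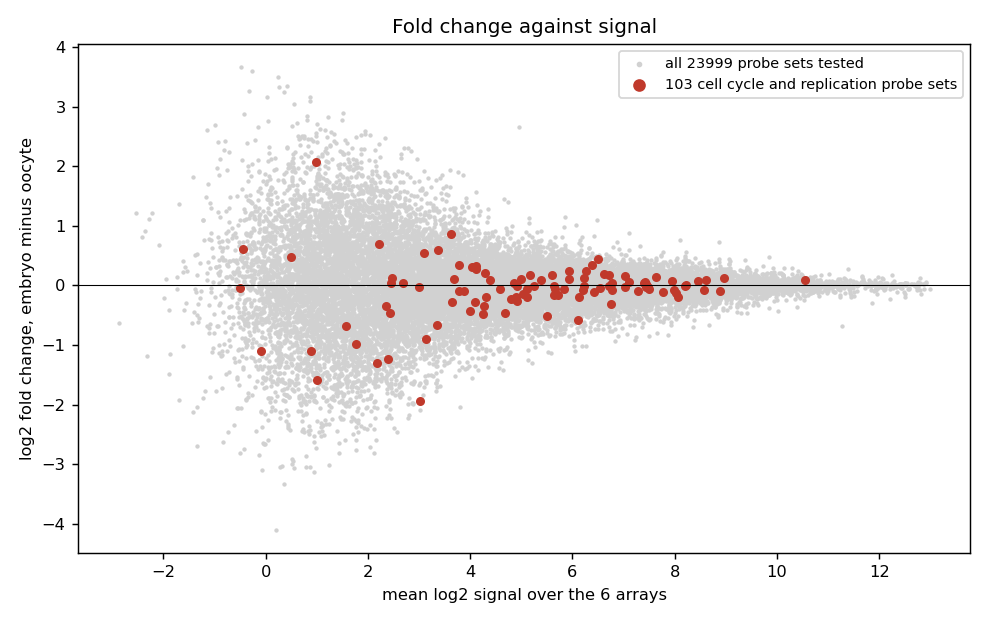
Log2 fold change (embryo minus oocyte) on the vertical axis against the mean log2 signal over the 6 arrays on the horizontal axis, for all 23999 probe sets (grey) and the 103 cell cycle and replication probe sets (red). The red points lie within the grey cloud, and they spread from -1.94 to 2.07 at low signals but only from -0.58 to 0.44 above the median log2 signal of 4.93.

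Within single sows the medians were also close to 0. The median of the 103 fold changes was -0.08 in sow 1, 0.00 in sow 2 and -0.01 in sow 3. Higher values with embryos in all 3 sows were found for 10 members and lower values for 16, against 14.9% and 14.8% of all probe sets. All 3 embryo signals lay above all 3 oocyte signals, after normalization, for 1 member (CDC34), against a background of 4.03%. The reverse held for 5 members (POLE3 and dim probe sets of CENPT, MCM4, CDK13 and RFC3), against 3.98%.

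**Figure D2:**
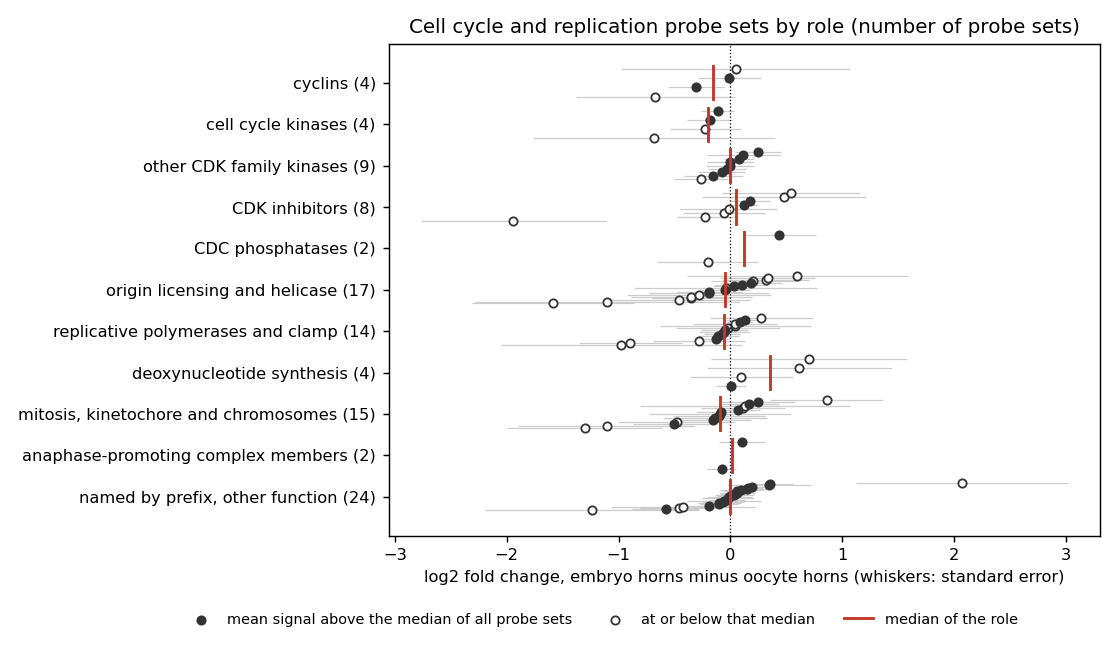
Log2 fold change (embryo minus oocyte) of the 103 probe sets, grouped by role with the number of probe sets in brackets; points are probe sets, filled for the 56 members brighter than the median probe set, whiskers are standard errors and red bars are role medians. The filled points stay within -0.58 to 0.44, and role medians run from -0.20 for the cell cycle kinases to 0.36 for deoxynucleotide synthesis, which rests on 4 probe sets.

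Among the cyclins, 1 of 4 probe sets was higher and 3 were lower (median -0.16), and 0 passed the test. CCNB1, the cyclin that carries cells into mitosis, had signals of 116, 122 and 67.9 with embryos in sows 1, 2 and 3 (the order used throughout), against 119, 145 and 105 with oocytes. Each embryo horn was below the oocyte horn of its own sow, while the groups overlapped. On the log2 scale it lay at -0.31 (standard error 0.25), with an unadjusted limma p of 0.259 that became 0.0490 once the sow was blocked (adjusted p = 0.574). CCNB2, its partner in mitotic entry, had low signals of 3.9, 20.1 and 12.0 with embryos and 9.5, 22.7 and 16.9 with oocytes (-0.67, standard error 0.71). CCND2, a D-type cyclin that couples growth signals to the G1 kinases, had 91.0, 54.6 and 89.5 with embryos and 109, 67.4 and 61.2 with oocytes. It lay higher with embryos in sow 3 and lower in sows 1 and 2, and its fold change was -0.01 (standard error 0.28). CCNA2, the cyclin of S phase, had signals of 4.7, 13.7 and 7.9 with embryos and 23.0, 14.8 and 1.3 with oocytes, so that the oocyte horns spanned all of the embryo values.

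All 4 probe sets of the cell cycle kinases CDK2 and CDK7 were lower, by 0.11 to 0.68 on the log2 scale, and 0 passed. For CDK2, the kinase of S phase entry, the brightest of 3 probe sets had 55.1, 70.5 and 77.8 with embryos and 72.6, 81.8 and 74.1 with oocytes. The horn of sow 1 with embryos was the lowest of the 6, and the fold change was -0.19 (standard error 0.20, unadjusted p = 0.382). CDK7, which activates other CDKs and is part of the transcription factor TFIIH, had 175, 221 and 239 with embryos and 207, 239 and 234 with oocytes. Of the 9 probe sets of other CDK family kinases (CDK5, CDK9, CDK10, CDK11B, CDK13 and CDK16), which act mostly in transcription and in neurons, 3 were higher and 6 lower, with a median of 0.00 and a range from -0.26 to 0.25.

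The CDK inhibitors were mixed, with 4 probe sets higher and 4 lower (median 0.05). CDKN1A (p21), which arrests cells after DNA damage and during differentiation, had 121, 117 and 102 with embryos, against 112, 107 and 83.2 with oocytes. It was higher with embryos in each sow, but the embryo horn of sow 3 lay below both the oocyte horns of sows 1 and 2, and the groups overlapped. The fold change of 0.17 had a standard error of 0.18 (unadjusted p = 0.358), or of 0.12 with the sow as a block (unadjusted p = 0.171, adjusted p = 0.725). CDKN1B (p27), a brake on CDK2 in resting cells, had 3 probe sets that did not move together. The brightest had 514, 597 and 464 with embryos and 442, 513 and 485 with oocytes (0.12, standard error 0.13). The dimmest had 2.4, 18.9 and 2.8 with embryos and 16.8, 17.1 and 24.0 with oocytes (-1.94, standard error 0.83, unadjusted p = 0.0451, adjusted p = 1.00). The embryo signals were very low in sows 1 and 3, and not in sow 2. The third probe set lay at -0.23 (standard error 0.26). CDKN2B (p15), an inhibitor of the G1 kinases, had signals of 0.9 to 2.4 in all 6 horns. CDKN3, a phosphatase that acts on CDKs, had 19.0, 37.2 and 47.1 with embryos and 23.3, 30.6 and 47.4 with oocytes, so that it varied by sow and hardly by horn (-0.02, standard error 0.44).

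CDC25 phosphatases remove the inhibitory phosphates from CDKs. CDC25B had 80.2, 179 and 84.0 with embryos and 86.2, 89.2 and 62.6 with oocytes. The embryo horn of sow 2 was the highest of the 6 by a wide margin, and the fold change of 0.44 (standard error 0.33, unadjusted p = 0.215, and 0.0477 with the sow as a block) was largest in that sow. CDC25C had 50.3, 13.9 and 37.5 with embryos and 47.5, 24.0 and 34.3 with oocytes (-0.20, standard error 0.45).

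**Figure D3:**
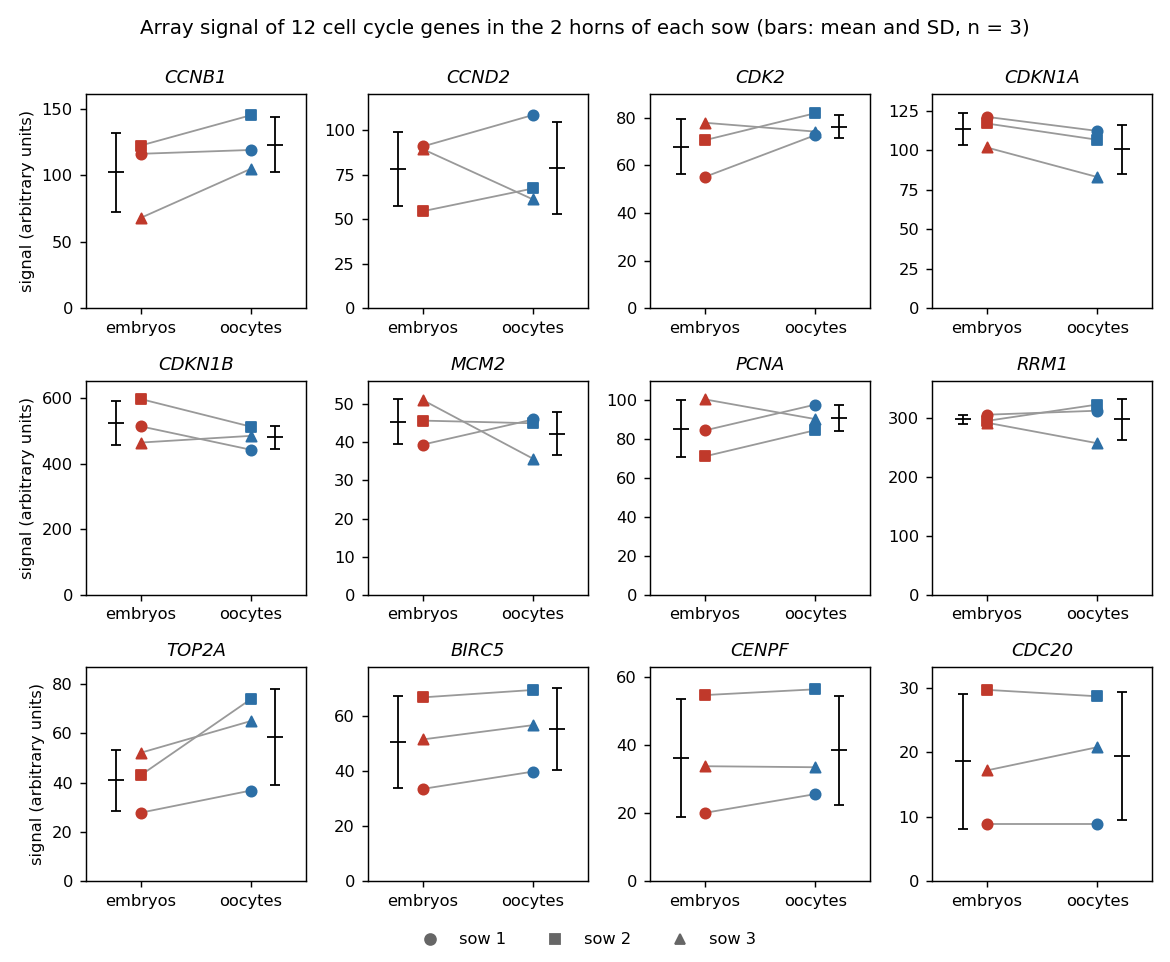
Deposited signal (vertical axis, arbitrary units, starting at 0) of the brightest probe set of 12 genes in horns with embryos (red, left) and horns with oocytes (blue, right); lines join the horns of 1 sow and bars give the mean and SD of each group (n = 3). In every panel the 2 groups overlap, and the lines of TOP2A, CCNB1 and BIRC5 run lower on the embryo side in all 3 sows.

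The 17 probe sets of origin licensing and the replicative helicase split into 7 higher and 10 lower (median -0.04). In all 3 sows 0 were higher and 4 lower, against 14.9% and 14.8% of all probe sets. The helicase subunit MCM2 had 39.4, 45.7 and 51.1 with embryos and 46.0, 45.0 and 35.7 with oocytes in its brightest probe set. The groups overlapped, with means of 45.4 ± 5.86 with embryos and 42.2 ± 5.68 with oocytes (SD, n = 3 each) and a fold change of 0.10 (standard error 0.23, unadjusted p = 0.681). Dimmer probe sets of MCM2 lay at -0.46 (standard error 0.64) and 0.32 (standard error 0.39). MCM3 had 26.7, 17.2 and 23.6 with embryos and 23.7, 23.3 and 9.5 with oocytes (0.33, standard error 0.42). The brightest probe set of MCM5 had 32.2, 28.6 and 14.2 with embryos and 20.8, 18.0 and 22.2 with oocytes (0.20, standard error 0.38). Dimmer probe sets of MCM5 lay at -0.28 and -0.04. The brighter probe set of MCM4 had signals of 4.0 to 10.8 in all 6 horns. Its dimmer one had 2.2, 1.4 and 0.8 with embryos and 7.0, 2.6 and 3.4 with oocytes (-1.59, standard error 0.72, unadjusted p = 0.0578). These groups did not overlap, at signals where a probe set is near the bottom of the array's range. The origin subunits ORC4 and ORC6 were bright enough to be read more closely. The brightest probe set of ORC4 had 140, 188 and 212 with embryos and 163, 157 and 204 with oocytes (0.03, standard error 0.19). Dim probe sets of ORC4 lay at -0.19 and -1.10. ORC6 had 106, 104 and 73.1 with embryos and 85.8, 119 and 85.6 with oocytes (-0.04, standard error 0.22). CDC45, which joins MCM in the active helicase, had 53.2, 58.5 and 50.5 with embryos and 32.5, 57.0 and 57.3 with oocytes in its brighter probe set (0.18, standard error 0.28). The oocyte horn of sow 1 was the one that stood low there. Its dimmer probe set lay at 0.60 (standard error 0.99).

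For the polymerases, the clamp and its loader, 5 of 14 probe sets were higher and 9 lower, with a median of -0.05 and 0 past the test. PCNA, the clamp that holds polymerase delta on DNA, had 84.2, 70.9 and 100 with embryos and 97.4, 84.3 and 90.0 with oocytes. Its mean was 85.1 ± 14.6 with embryos and 90.6 ± 6.57 with oocytes (SD, n = 3 each), with a fold change of -0.11 (standard error 0.18, unadjusted p = 0.567). RFC1, the large subunit of the clamp loader, had 89.9, 73.1 and 77.0 with embryos and 78.3, 74.0 and 65.8 with oocytes (0.13, standard error 0.17). POLE3, a histone-fold subunit of polymerase epsilon, had 263, 245 and 248 with embryos, against 268, 281 and 276 with oocytes. It was among the members with the least spread between replicates, and its groups did not overlap, at 252 ± 9.49 with embryos and 275 ± 6.75 with oocytes (SD, n = 3 each). The difference was nonetheless small, with a fold change of -0.13 (standard error 0.12, unadjusted p = 0.287), and POLE4, its partner in the same enzyme, lay the other way at 0.09 (standard error 0.11). Of the polymerase delta subunits, POLD2 and POLD4 were both at -0.05 (standard errors 0.23 and 0.21), and the brighter probe set of POLD3 was at 0.28 (standard error 0.46). The dimmer one of POLD3 was at 0.04.

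All 4 probe sets of deoxynucleotide synthesis had positive fold changes, with a median of 0.36, but the only bright one lay at 0.00. RRM1, the large subunit of ribonucleotide reductase, had 306, 296 and 293 with embryos and 313, 324 and 258 with oocytes, means of 298 ± 7.13 with embryos and 298 ± 35.4 with oocytes (SD, n = 3 each) and a fold change of 0.00 (standard error 0.14). RRM2, the small subunit, whose mRNA peaks in S phase, had 8.0, 6.6 and 6.8 with embryos and 1.1, 10.5 and 6.9 with oocytes, with a fold change of 0.70 (standard error 0.88) that was -0.35 without the oocyte array of sow 1. Thymidylate synthase, TYMS, had 32.8, 25.5 and 17.0 with embryos and 22.6, 39.4 and 12.7 with oocytes in its brighter probe set (0.10, standard error 0.46).

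Mitotic and kinetochore genes gave 6 probe sets higher and 9 lower (median -0.09). Of these, 1 was higher and 5 were lower in all 3 sows, against 14.9% and 14.8% of all probe sets. TOP2A, the topoisomerase that untangles sister chromatids, had 27.8, 43.0 and 52.1 with embryos, against 36.8, 73.9 and 65.0 with oocytes. It was lower with embryos in every sow, yet the sows themselves differed by more, and the groups overlapped. Means were 41.0 ± 12.3 with embryos and 58.6 ± 19.4 with oocytes (SD, n = 3 each). The fold change was -0.51 (standard error 0.36, unadjusted p = 0.195, adjusted p = 1.00), and blocking by sow gave an unadjusted p of 0.0209 (adjusted p = 0.483). BIRC5 (survivin), a subunit of the chromosomal passenger complex, had 33.6, 66.9 and 51.6 with embryos and 39.9, 69.6 and 56.8 with oocytes, again lower in each sow but by 0.15 only (standard error 0.34). CDC20, which activates the anaphase-promoting complex, had 8.9, 29.7 and 17.2 with embryos and 8.9, 28.7 and 20.8 with oocytes (-0.09, standard error 0.63). The kinases were dim. AURKA, of the spindle poles, had 14.8, 12.6 and 21.1 with embryos and 16.6, 15.4 and 11.8 with oocytes (0.11, standard error 0.37). PLK1 had 3.8, 3.5 and 3.1 with embryos and 8.4, 20.0 and 3.5 with oocytes (-1.30, standard error 0.69, unadjusted p = 0.0945). Its embryo signals were uniformly near the bottom of the range, and the difference was largest in sow 2. The anaphase-promoting complex members CDC23 and CDC26 lay at 0.10 and -0.08 (standard errors 0.21 and 0.13).

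The genes caught by prefix alone were mixed as well. Of 24 probe sets, 11 were higher and 13 lower (median -0.01). CDC34, a ubiquitin-conjugating enzyme that works with SCF ligases, had 134, 147 and 137 with embryos and 125, 128 and 122 with oocytes. It was the member whose embryo horns all lay above the oocyte horns, at 140 ± 6.66 with embryos and 125 ± 3.25 with oocytes (SD, n = 3 each), although the fold change was 0.16 (standard error 0.14, unadjusted p = 0.285). The brighter probe set of CDK5RAP3 and a probe set of POLDIP2 were also higher in all 3 sows. That of CDK5RAP3 had 170, 186 and 174 with embryos against 163, 181 and 161 with oocytes (0.06, standard error 0.13). Its dimmer probe set lay at -0.06 (standard error 0.33). POLDIP2 had 106, 117 and 96.6 with embryos and 101, 82.5 and 95.8 with oocytes (0.20, standard error 0.17), while its brighter probe set lay at -0.10. A dim probe set of CDKN2AIP had 3.9, 5.8 and 4.7 with embryos and 0.5, 4.4 and 0.6 with oocytes (2.07, standard error 0.95, unadjusted p = 0.0578), and its bright one lay at 0.35 (standard error 0.21).

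CDC5L was the only member probe set among the 210 that the study selected on these same arrays, so its direction is not independent evidence. That probe set had 81.3, 45.1 and 52.4 with embryos and 128, 71.6 and 69.1 with oocytes, lower with embryos in each sow. Sow 1 was the highest in both horns, and the group ranges overlapped. The fold change was -0.58 (standard error 0.30, unadjusted p = 0.0855), with an unadjusted p of 0.00261 and an adjusted p of 0.309 with the sow as a block. The brighter probe set of CDC5L had 500.4, 544 and 358 with embryos and 517, 499.5 and 462 with oocytes, with a fold change of -0.10 (standard error 0.17).

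Such disagreement within a gene was common. Several probe sets were present for 21 of the 75 genes, and in 10 of these the probe sets pointed in different directions, in 11 in the same one. Probe sets of a gene are not replicates of a condition, since they read the same 6 RNA samples.

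The 3 sows were compared next. In a limma fit with the group and the sow, 10 of the 103 probe sets differed between sows at an adjusted p under 0.05, against 11.3% of all probe sets, and 29 had an unadjusted p under 0.05, against 25%. The share was therefore close to the background. Among the 56 bright members 7 passed, against 20.8% of all probe sets above the median signal. Of the 10, 8 were lower in both horns of sow 1 than in the other 4 horns: BIRC5, BUB3, CDC20, CENPF, TOP2A, CDKN3, CDK2AP1 and a dim probe set of CDC45. The probe set of CDC5L described above was higher in sow 1, and the brighter probe set of CDC123 was lower in sow 2. The dimmer one of CDC123 went the other way. Both horns of sow 2 lay above all others there, and it did not pass (adjusted p = 0.757 in the limma F test). Not all of these calls held under other settings. With the values as deposited CDC20, TOP2A and CDKN3 no longer passed, and with 32 added to each signal BIRC5, TOP2A and CDKN3 did not. With signals under 10 set to 10, or without a trend of the variance on the signal, 0 members and 0 probe sets of the whole array passed. At an unadjusted p under 0.05 there were then 18 and 14 of the 103 members, against 4905 and 3709 of all 23999 probe sets. Neither count was a larger share of the members than of all probe sets.

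Within the mitotic role, sow 1 often had the lowest horns. This role, sow and direction were not fixed in advance. Of all roles it had the largest share of probe sets with an adjusted p under 0.05 between sows, at 33.3%. The other roles had 0% to 12.5%. Both horns of sow 1 lay below all other horns for 8 of 15 probe sets, against 15% of all probe sets, and both horns of sow 2 above all others for 5 of 15, against 11.6%. BIRC5, BUB3, CDC20, CDCA3 and CENPF met both descriptions (5 of 15, against 3.9% of all probe sets), and 7 of 15 met neither. CENPF, a kinetochore protein of G2 and M, had 20.1, 54.7 and 33.8 with embryos and 25.6, 56.4 and 33.5 with oocytes. Its horns differed little within a sow, with a fold change of -0.14 (standard error 0.46), while sow 1 was lower than the mean of the other sows by 1.05 on the log2 scale (adjusted p = 0.0196 for the sow). CDC20 was lower in sow 1 by 1.58 (adjusted p = 0.0419), TOP2A by 0.93 (0.0325) and BIRC5 by 0.81 (0.0298). The adjusted p-values of this paragraph are those of the limma F test of any difference among the 3 sows. They do not test sow 1 against the others. Sow 2 lay above the mean of the other sows by 1.11 for CENPF, 1.30 for CDC20, 0.47 for TOP2A and 0.69 for BIRC5. BUB3, a spindle checkpoint protein that is also present outside mitosis, had 289.6, 428 and 372 with embryos and 259.7, 405 and 377 with oocytes (lower in sow 1 by 0.48, adjusted p = 0.0135). Over all 103 members, both horns of sow 1 were lowest for 20 (background 15%) and highest for 8 (13.9%), those of sow 2 lowest for 7 (10.9%) and highest for 19 (11.6%), and those of sow 3 lowest for 10 (8.27%) and highest for 8 (8.73%). The genes are measured on the same 3 animals, so these counts are those of 3 sows and not of 15 independent measurements.

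**Figure D4:**
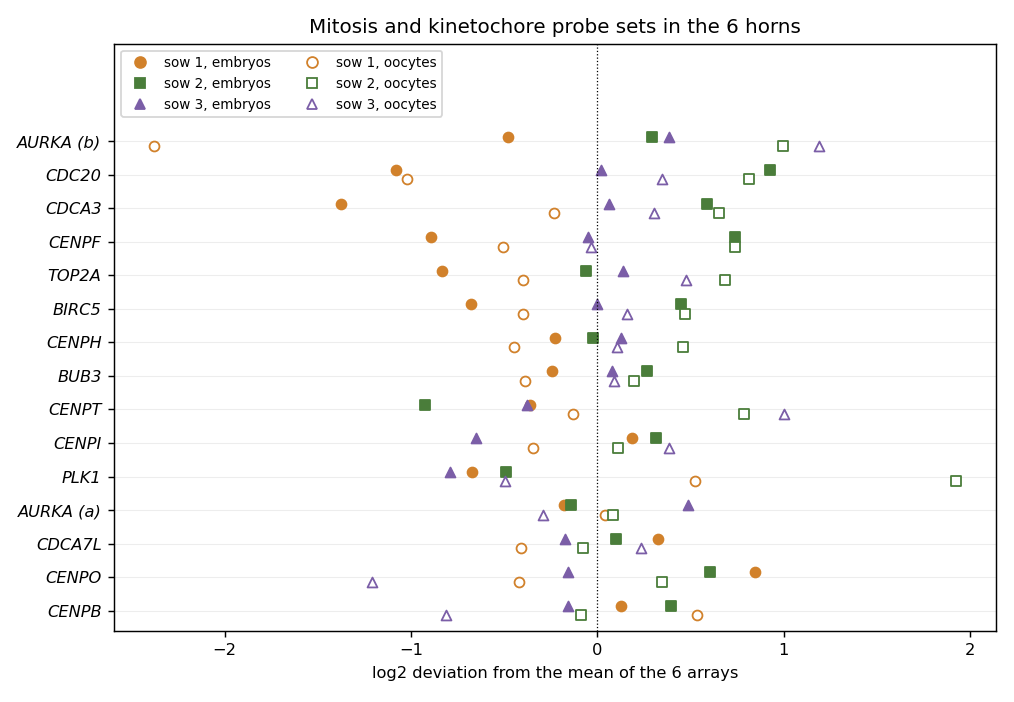
Log2 deviation of each horn from the mean of the 6 arrays (horizontal axis) for the 15 probe sets of the mitotic role (vertical axis; a and b are the 2 probe sets of AURKA), with filled symbols for horns with embryos, open symbols for horns with oocytes and a shape and colour for each sow. For 8 probe sets, including CDC20, CENPF, TOP2A and BIRC5, both horns of sow 1 lie to the left of all others.

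Markers of other cell types moved with the sows as well. The median deviation of the mitotic role from the array mean was -0.36 in the embryo horn and -0.40 in the oocyte horn of sow 1, 0.29 and 0.47 in those of sow 2, and -0.0013 and 0.16 in those of sow 3. The 5 stromal markers ran the opposite way, at 0.48 with embryos and 0.57 with oocytes in sow 1, at -0.74 and -0.51 in the same horns of sow 2, and at 0.11 and 0.03 in those of sow 3. Smooth muscle markers (4 of 5 measured) were highest in sow 1, where they summed to 1365 with embryos and 2141 with oocytes, against 572 with embryos and 458 with oocytes in sow 2 and 908 with embryos and 787 with oocytes in sow 3. The 6 epithelial markers had medians of -0.20 with embryos and -0.08 with oocytes in sow 1, 0.07 and 0.06 in the same horns of sow 2, and 0.13 and 0.07 in those of sow 3. Both horns of sow 1 lay below all others for 4 of these 6 markers and above all others for 1. In the limma F test of any difference among the sows, 2 of the 6 had an adjusted p under 0.05. KRT8, an epithelial keratin and 1 of these 2, was lower in sow 1 by 0.64 (adjusted p = 0.00163 in that F test). Leukocyte markers (6 of 8 measured) were highest in sow 2, as the mitotic genes were, with medians of -0.12 with embryos and -0.31 with oocytes in sow 1, 0.48 and 0.60 in the same horns of sow 2, and -0.26 and -0.37 in those of sow 3. For 3 of the 6, both horns of sow 2 lay above all others. Red blood cell markers (2 of 3 measured) did not run together. Both horns of sow 1 lay below all others for 1 of the 2 and above all others for 1. Their medians were -0.50 with embryos and -0.95 with oocytes in sow 1. They were 0.15 and 0.22 in the same horns of sow 2, and 0.46 and 0.62 in those of sow 3.

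Other member roles also varied by sow. The licensing role had medians of -0.03 with embryos and 0.02 with oocytes in sow 1, 0.17 and 0.21 in the same horns of sow 2, and -0.23 and 0.10 in those of sow 3. Both horns of sow 2 lay above all others for 6 of its 17 probe sets, against 11.6% of all probe sets. Both horns of sow 1 lay below all others for 3 of the 17, against 15%. The 4 cyclin probe sets had medians of 0.50 with embryos and 0.67 with oocytes in sow 2, and of -0.41 and 0.31 in the same horns of sow 1. The polymerase role stayed between -0.01 and 0.07 in all 6 horns. The 5' signal divided by the 3' signal of the GAPDH and actin controls, given below, also differed by sow. In both groups it was highest in sow 1 and lowest in sow 2. The parts that the cell mixture and the state of the RNA had in the sow differences of the mitotic genes were not tested.

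**Figure D5:**
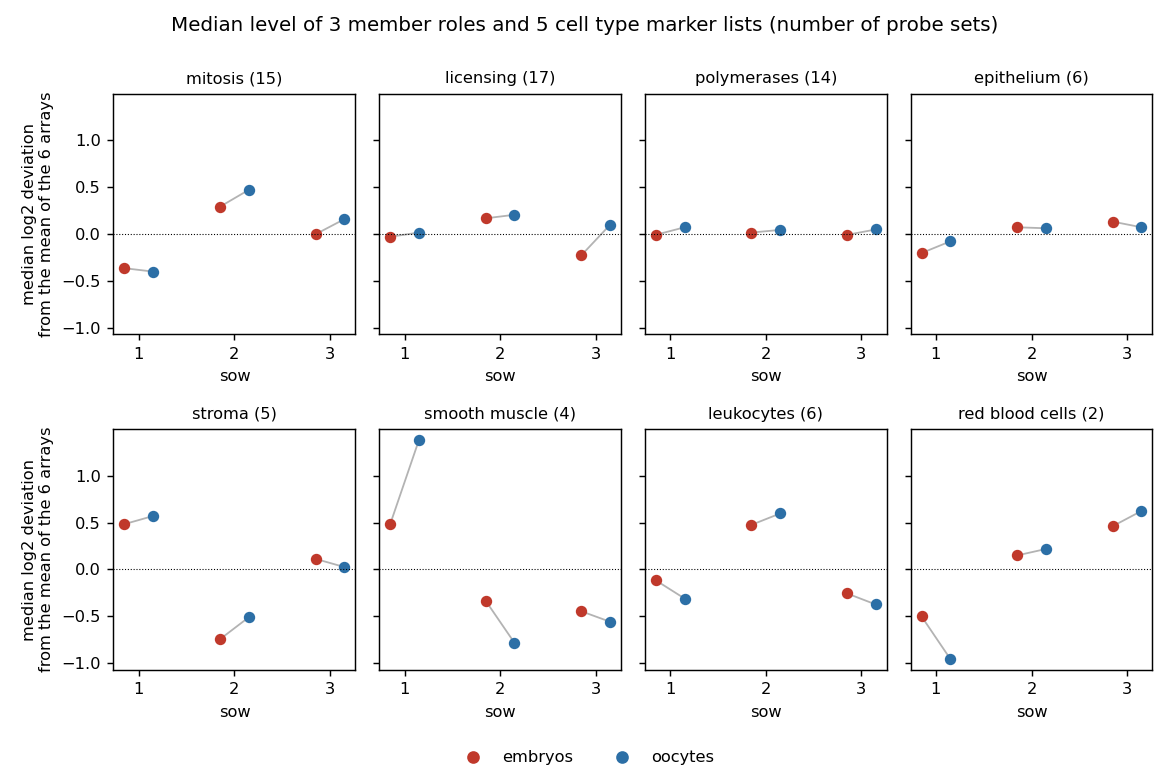
Median log2 deviation from the mean of the 6 arrays (vertical axis) of 3 member roles and 5 cell type marker lists, with the number of probe sets in brackets, for each sow (horizontal axis); red points are horns with embryos, blue points horns with oocytes, and lines join the horns of a sow. Mitotic genes are lowest in sow 1 and highest in sow 2, the stromal markers run the other way, and the leukocyte markers are highest in sow 2.

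Between the horns, the median fold changes of most marker lists were near 0, while single sows differed more. Epithelial markers had a median fold change of 0.02, stromal markers of -0.08 and smooth muscle markers of -0.09, with 0 markers of these lists at an unadjusted p under 0.05. Within sows 1, 2 and 3 the median difference, embryo minus oocyte, was -0.85, 0.44 and 0.11 for smooth muscle, 0.45, -0.07 and -0.16 for red blood cells and 0.59, -0.15 and 0.50 for the blastocyst markers. Leukocyte markers summed to 135 to 199 with embryos and 114 to 208 with oocytes, endothelial markers (4 of 4) to 181 to 272 with embryos and 187 to 240 with oocytes, and red blood cell markers to 423 to 942 with embryos and 362 to 966 with oocytes. Of 7 blastocyst markers 2 were measured. POU5F1 had 16.4, 2.0 and 21.4 with embryos and 10.2, 3.0 and 12.0 with oocytes, and GATA2, which the uterus also expresses, had 906, 970.1 and 986 with embryos against 612, 844 and 838 with oocytes (0.33, unadjusted p = 0.0368, adjusted p = 1.00). The array's control probe sets bear on the RNA itself. For the GAPDH controls, the 5' signal divided by the 3' signal, a ratio that drops in degraded or partly copied RNA, was 0.243, 0.130 and 0.199 with embryos and 0.355, 0.200 and 0.226 with oocytes. That of actin was 0.148, 0.0577 and 0.104 with embryos and 0.219, 0.105 and 0.118 with oocytes. Both were lower with embryos in 3 of 3 sows. An exact two-sided permutation test over arrays gave p = 0.4 for each, where 0.1 is the smallest p that 3 against 3 allows. That test left out the pairing by sow, so its p does not measure the drop within sows. The part of these ratios in the values of single members was not tested.

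Other genes of the same pathway were read outside the symbol rule. Of 98 listed genes 46 were measured, 22 higher and 24 lower with a median of -0.03, and 1 had an unadjusted p under 0.05, against 2.88% of all probe sets. It was CLSPN (claspin), a fork protein of the checkpoint, at 12.1, 6.1 and 5.2 with embryos and 1.8, 4.5 and 1.4 with oocytes (1.67, unadjusted p = 0.0368, adjusted p = 1.00), with groups that did not overlap at low signals. With the sow as a block there were 3 higher (MYBL2, GMNN and CLSPN) and 3 lower (ANAPC1, FBXW7 and CKS2), against 8.7% of all probe sets. GMNN, geminin, which blocks a second round of licensing, had 144, 116 and 96.5 with embryos and 98.4, 82.6 and 85.2 with oocytes. Its fold change was 0.40, with an unadjusted p of 0.0655, and 0.0107 with the block. FBXW7, the ligase subunit that marks cyclin E for destruction, had 114, 97.9 and 71.6 with embryos and 129, 132 and 118 with oocytes, at -0.45 (unadjusted p = 0.0518, and 0.00718 with the block). Spindle and cytokinesis genes outside the rule had a median of -0.38, and 5 of 7 were lower in all 3 sows, against 14.8% of all probe sets, with 0 at an unadjusted p under 0.05 and 1 of the 7 brighter than the median of all probe sets. The brightest, MAD2L1 of the spindle checkpoint, had 108, 121 and 90.8 with embryos and 106, 143 and 127 with oocytes (-0.24, unadjusted p = 0.225).

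Of the 34 genes fixed for full description, 22 had a probe set with a single symbol. MKI67, CDK1, CDK4, CDK6, CCND1, CCND3, CCNE1, CCNE2, CDKN1C, CDKN2A, MCM6 and MCM7 were not analysed here among the members.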

How the data were processed

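Arrays, 3 per group, were used as 1 value per probe set and horn. The intensity signals that the authors deposited were made with MAS5 version 5.1 on a linear scale, with every array scaled to a trimmed mean of 100.0, before the Lowess normalization that the methods describe. Signals under 0.1 were set to 0.1, put on a log2 scale and normalized by cyclic loess over 24123 probe sets. After removal of 124 controls, 23999 were tested in limma 3.58.1 (R 4.3.3) with the group as the term, a variance trend and Benjamini-Hochberg adjustment at 0.05. The methods' model of single probes could not be fitted to these signals. Sow differences were tested by the limma F test with group and sow. The test was run on simulated data with known changes. How many of these it recovered is not given here, so that run does not show how small a change could be detected. Symbols came from the array's annotation, and all 103 members were found by gene identifier in a current gene table, with 0 symbols changed.

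Members and lists were chosen with earlier results of these data known. Named in full were the brightest probe set of 34 genes, members with an unadjusted p under 0.05 or in the study's list of altered transcripts, and up to 5 bright members per direction with the smallest p and 1 direction in all 3 sows. Other members whose values are printed were chosen after their values were seen. The study's own comparison values were not used. The labels number the arrays 1 to 3, a number was taken as 1 sow because the labels take both horns from the same animal and the methods' ratios of MAL per sow match arrays of equal number, and same-numbered arrays deviated together from their groups, with correlations of 0.207, 0.173 and 0.100. The p-values without the sow block rest on the spread between the 3 arrays of a group. Those with the sow block, and those of the sow F test, rest on how the horn difference varied between the sows. For arrays the number limits the precision. Alternatives were the deposited values, quantile or median scaling, 32 added to each signal, a floor of 10, a model without the variance trend, a block for the sow, a test of bright probe sets alone, 1 value per gene (its mean or its brightest probe set), and arrays left out one by one. The planned promoter comparison was not run and no sequences are shown. Figures were drawn with matplotlib 3.10.9.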

Additional observations from a re-analysis of the deposited data

How the results depend on the processing

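The count of 0 members and 0 probe sets of the whole array at an adjusted p under 0.05 held under all alternatives run for the comparison of horns. At an unadjusted p under 0.05, 1 member passed under cyclic loess, against 2.88% of all probe sets. With the test restricted to probe sets above the median signal (fewer probe sets tested), 0 members passed, against 1.93% of those probe sets. Without the variance trend 3 passed (CENPT, MCM4 and RFC3), against 3.73% of all probe sets, and 6 with the sow as a replicate block, against 8.7%. Leaving out each array in turn gave 1 to 2 members, against 2.33% to 4.31% of all probe sets. The median fold change of the members ranged from -0.082 without the oocyte array of sow 3 to 0.047 without the embryo array of sow 1, so that its sign rested on single arrays. The members that differed between sows numbered 9 with the values as deposited, against 11.6% of all probe sets, and 10 after quantile normalization, against 11.2%. With a floor of 10 there were 0, as for all probe sets. Chosen after seeing the data, 32 added to each signal gave 8, against 9.78% of all probe sets. No variance trend gave 0, and a floor of 10 without the trend 0, again as for all probe sets. What caused these changes was not tested.

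Of 393 values of the named members under alternatives, 364 kept their direction and their side of the threshold, and 29 changed sign, with 0 of them past the threshold. With a floor of 10 CDKN2B lay at -0.0048, CCNA2 at -0.45, RRM1 at -0.0017 and RRM2 at -0.028. With 32 added CCNA2 lay at -0.12 and RRM1 at -0.0033, and with scaling to the same median CCND2 lay at 0.0018. Leaving out each array in turn, CDKN3 ranged from -0.29 to 0.41, CCNA2 from -1.18 to 0.78, CCNB2 from -1.26 to 0.069, CCND2 from -0.17 to 0.24, RRM1 from -0.11 to 0.060, RRM2 from -0.35 to 1.35, TYMS from -0.30 to 0.53, AURKA from -0.11 to 0.23, BIRC5 from -0.42 to 0.15, CDC20 from -0.63 to 0.43, MCM2 from -0.0100 to 0.24, MCM3 from -0.082 to 0.57 and PCNA from -0.23 to 0.00090. The cause was not tested. Signals this low limit what can be read of dim members, since 25.4% to 29.0% of an array lay under 10.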

Other observations

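Some cell cycle genes were read by probe sets outside the symbol rule. The brighter of the pair of probe sets that the annotation names CDK6 under a doubled symbol, a G1 kinase, had signals of 86.8, 42.4 and 48.5 with embryos and 71.7, 51.1 and 67.9 with oocytes in sows 1, 2 and 3 (-0.16 on the log2 scale, with a standard error of 0.28 and an unadjusted limma p of 0.573). The study's own naming places 2 more anaphase-promoting complex subunits on the array, CDC27 and CDC16, at probe sets it selected on these arrays, so that their direction is not independent evidence. CDC27 had 121, 76.6 and 89.2 with embryos and 127, 109 and 112 with oocytes (-0.31, unadjusted p = 0.155, and 0.0365 with the sow as a block). CDC16 had 113, 81.0 and 107 with embryos and 114, 103 and 127 with oocytes (-0.21, unadjusted p = 0.285). For comparison, the members CDC23 and CDC26 of the same complex, which the study did not select, lay at 0.10 and -0.08.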
